A study of Mus musculus with 2 samples.

Results

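Heat shock chaperones, the proteins that hold, fold and refold other proteins, were followed across the cell types of a sorted population of mouse lung cells. The set held 9 of the 15526 genes in the table, taken by name: Hspa1a, Hspa1b, Dnajb1, Hsph1, Hsp90aa1, Hspb1, Hspa8, Hsp90ab1 and Hspa5. All 9 passed the filter on low values, a UMI (unique molecular identifier, 1 captured RNA molecule) in at least 1% of cells. The cells came from p16-FDR mice on the C57BL/6 strain, aged 20 to 22 months. In these mice an allele carries an FLP recombinase together with a diphtheria toxin receptor that is fused to mCherry, a red fluorescent protein, and p16 is the product of Cdkn2a, a cell cycle inhibitor used as a marker of senescence. mCherry+ lung cells were sorted and each cell's RNA was counted from its 3' end with droplet-based 10x Genomics chemistry. There was 1 group of 2 samples, and mCherry-negative cells, which would give a background level, were not analysed here.

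Chaperones of the HSP70 family bind unfolded stretches of protein and release them in cycles driven by ATP, helped by J-domain proteins that start the cycle and by exchange factors that end it. HSP90 proteins act later, on proteins such as kinases and hormone receptors, and small heat shock proteins hold damaged proteins without using ATP. Some members are made in all cells, while others are switched on by heat shock factor 1 when proteins misfold, and a separate program, the unfolded protein response, serves the endoplasmic reticulum. The inducible cytosolic members here were Hspa1a and Hspa1b (the inducible HSP70 pair), Dnajb1 (a J-domain partner), Hsph1 (an HSP110 exchange factor), Hsp90aa1 (the inducible HSP90) and Hspb1 (a small heat shock protein). The constitutive cytosolic members were Hspa8 (HSC70) and Hsp90ab1 (HSP90 beta), and Hspa5 (BiP) is the HSP70 of the endoplasmic reticulum.

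The start regions of Hspa1a, Hspa1b, Hsph1 and Hspb1 held recognition letters of heat shock factor 1, and examples are shown because the inducible members differed between cell types. RefSeq's promoter table for GRCm38.p6 held 6 of the 9 members (Hspa1a, Hspa1b, Dnajb1, Hsph1, Hspb1 and Hspa5), and the 250 bases before each start site were searched on both strands. The letters searched were GAANNTTC and TTCNNGAA, the inverted pairs of units from which heat shock elements are built, which can overlap each other by 1 unit, and the endoplasmic reticulum stress response element (ERSE). Capitals mark the matches in the lines that follow, which run 5′ to 3′ on the gene's strand. Hspa1a is shown at chr17:34972157-34972406 (minus strand), Hspb1 at chr5:135887669-135887918 (plus strand), Hsph1 at chr5:149636351-149636380 (minus strand) and Hspa5 at chr2:34772020-34772049 (plus strand), the last pair as 30 bases around the match.
Hspa1a: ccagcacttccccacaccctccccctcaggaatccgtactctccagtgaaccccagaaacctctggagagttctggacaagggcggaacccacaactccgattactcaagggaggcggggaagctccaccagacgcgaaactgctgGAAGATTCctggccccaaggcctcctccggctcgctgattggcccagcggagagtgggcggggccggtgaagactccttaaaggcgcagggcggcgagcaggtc
Hspb1: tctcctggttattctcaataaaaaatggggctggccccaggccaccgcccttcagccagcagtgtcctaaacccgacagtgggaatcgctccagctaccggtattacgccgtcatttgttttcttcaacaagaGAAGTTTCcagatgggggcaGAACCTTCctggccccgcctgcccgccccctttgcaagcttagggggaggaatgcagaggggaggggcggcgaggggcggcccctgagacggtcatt
Hsph1: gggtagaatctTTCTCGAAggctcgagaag
Hspa5: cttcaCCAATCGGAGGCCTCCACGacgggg
The Hspa1a match lay 104 to 97 bases before the start site, and Hspa1b had the same letters at the same place. These windows of the HSP70 pair, which are neighbours on chromosome 17, differed at 3 of 250 bases (98.8% identical). Hspb1 had GAANNTTC at 2 places, 117 to 110 and 97 to 90 bases before its start site. Hsph1 had TTCNNGAA, Hspa5 had the ERSE 65 to 47 bases before its start site, and Dnajb1 had none of these letters in its window. Of 32851 windows of the same length, 12.8% held GAANNTTC or TTCNNGAA and 0.113% the ERSE. Each form of 3 units was held by 0.466% of the windows and by no window of these members. The genes lie on GRCm38, in the GENCODE M21 annotation, at chr17:34969190-34972156 (Hspa1a), chr17:34956436-34959238 (Hspa1b), chr8:83608193-83612653 (Dnajb1), chr5:149614287-149636376 (Hsph1), chr12:110690605-110702728 (Hsp90aa1), chr5:135887919-135889563 (Hspb1), chr9:40800984-40810087 (Hspa8), chr17:45567775-45573271 (Hsp90ab1) and chr2:34771970-34777547 (Hspa5).

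The table held 1344 cells, 1145 from library 1 and 199 from library 2, with medians of 5631 and 6716 UMIs per cell and no cell barcode in common. The cell names do not tie a library to a sample, so the table counts as 1 sample, no test was made, and the values of the libraries are given side by side. Rates divide a gene's summed UMIs by all UMIs of the class, times 10000, and log2 ratios of rates carry a pseudocount of 0.1 per 10000. The 95% Poisson interval of a rate, and the exact binomial (Clopper-Pearson) interval of a share, cover counting error only and not the spread between mice. Cells fell into 12 clusters made without the chaperone and stress genes. A Car4-high cluster of 457 cells and a Plvap-high cluster of 146 made up the endothelial-like cells, the largest class, and at least 9 of 10 endothelial markers were detected in at least 25% of the cells of each. The other named clusters were interstitial-macrophage-like (104 cells), T-cell-like (85), B-cell-like (82), gamma-delta-T-like (71), serous-macrophage-like (49), plasma-cell-like (24) and alveolar-macrophage-like (20) cells. The remaining clusters stayed unnamed: cluster 3 (139 cells, led by airway and alveolar genes such as Scgb1a1 over fibroblast markers), cluster 5 (91 cells, led by contractile genes such as Acta2) and cluster 8 (76 myeloid cells led by Mmp12 and Ccl17). Library 2 was mostly endothelial-like (154 of its 199 cells), and the interstitial-macrophage-like cells (15) and cluster 8 (11) were the other classes with at least 10 of its cells. Scgb1a1, a secretory product of airway cells, served as a gauge of free RNA and was counted at 0.705 to 3.56 per 10000 in the classes other than cluster 3.

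The inducible HSP70 pair was low in the cells that dominated the sort. In endothelial-like cells Hspa1a was counted at 1.19 UMIs per 10000 (1.07 to 1.30) and Hspa1b at 1.01 (0.909 to 1.12), against 9.63 (9.39 to 9.88) and 7.34 (7.13 to 7.55) in all other cells. The log2 ratios were -2.92 and -2.74. Over both libraries, Hspa1a was highest in interstitial-macrophage-like cells, at 24.1 per 10000 (23.0 to 25.2), and then in T-cell-like cells, at 19.2 (17.7 to 20.7). Cluster 8 followed at 12.7 (11.9 to 13.6), gamma-delta-T-like cells at 10.8 (9.63 to 12.1), serous-macrophage-like cells at 10.5 (9.68 to 11.4) and B-cell-like cells at 8.999 (8.26 to 9.79), where each interval overlapped the next. Cluster 3 at 4.89, cluster 5 at 4.88 and alveolar-macrophage-like cells at 3.67 (2.91 to 4.56) formed a lower step with overlapping intervals. The lowest rates of Hspa1a were 1.70 (1.47 to 1.96) in Plvap-high endothelial-like cells, 1.58 (1.30 to 1.90) in plasma-cell-like cells and 0.936 (0.818 to 1.07) in Car4-high endothelial-like cells. The first place of interstitial-macrophage-like cells was not held in library 2. There cluster 8 was at 10.2 (8.49 to 12.1) and interstitial-macrophage-like cells at 7.68 (6.24 to 9.36), with overlapping intervals. By library, Hspa1a in endothelial-like cells was at 1.19 and 1.18 per 10000, and Scgb1a1 in the same cells at 1.83 in library 1 and 0.216 in library 2. Over all cells Scgb1a1 was at 206.3 per 10000 in library 1 and 105.5 in library 2, and Hspa1a at 7.335 and 2.383. The genes thus differ in their overall amount, and the rate of the gauge is not a floor for Hspa1a. The part of free RNA was not tested.

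**Figure D1:**
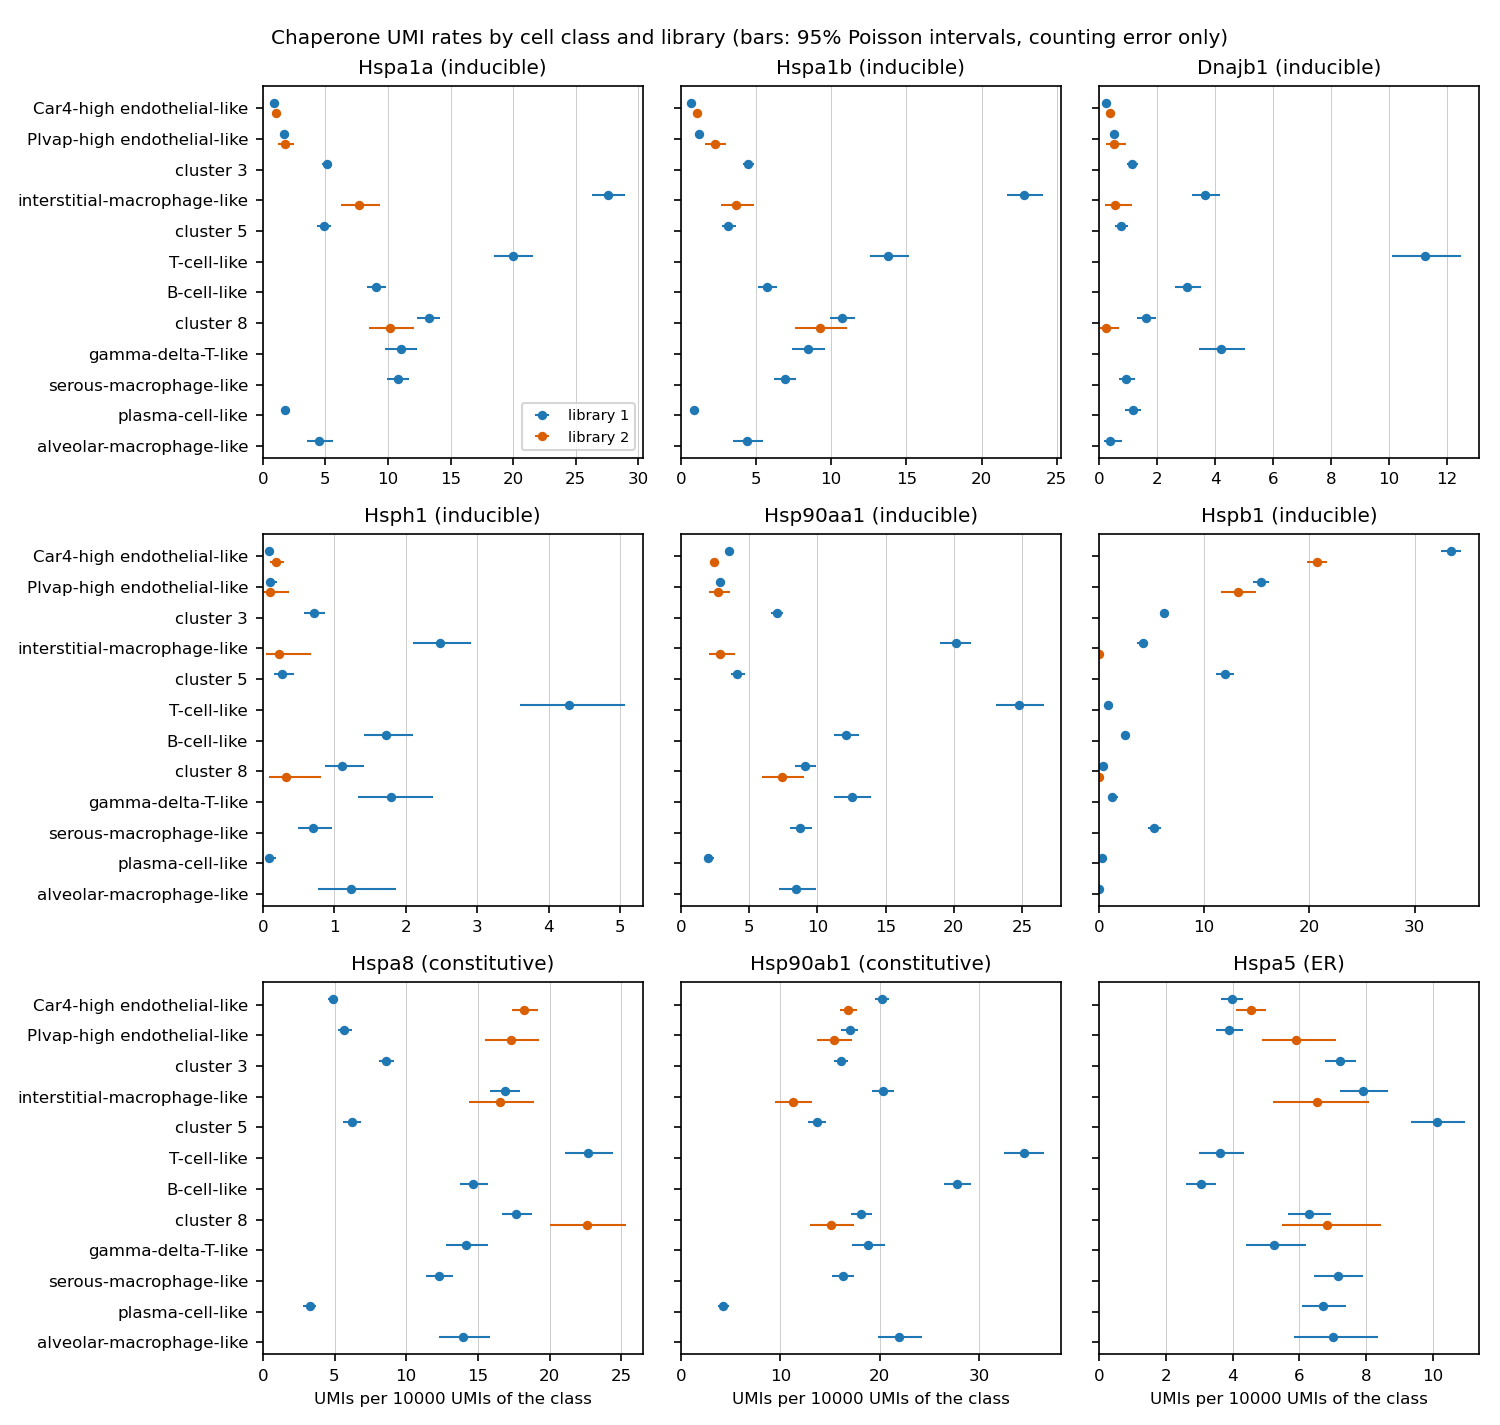
Rates of the 9 chaperones in UMIs per 10000 UMIs (x axis, linear from 0, own range for each gene) in 12 cell classes (y axis), with library 1 in blue and library 2 in orange where it held at least 10 cells; points are summed rates and bars are 95% Poisson intervals. Hspa1a reaches 27.6 in the interstitial-macrophage-like cells of library 1 and 7.68 in those of library 2, while Hspb1 stands highest in Car4-high endothelial-like cells, at 33.5 and 20.7.

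Hspa1b kept close to Hspa1a. Its rate was 19.5 per 10000 (18.5 to 20.5) in interstitial-macrophage-like cells, 13.4 (12.2 to 14.7) in T-cell-like cells and 10.5 (9.75 to 11.2) in cluster 8, and it was lowest in Car4-high endothelial-like cells, at 0.832 (0.721 to 0.956). In library 2 alone cluster 8 was above interstitial-macrophage-like cells, at 9.22 (7.62 to 11.1) against 3.65 (2.68 to 4.85). Without the highest cell of each class these library 2 rates were 3.38 and 0.671. The coding parts of this pair are nearly the same, but in the last 500 bases of each transcript no stretch of 50 bases was held by a transcript of another gene, so reads from their 3' ends can be told apart there. The share of cells with a Hspa1a UMI was 77.9% (68.7 to 85.4%) in interstitial-macrophage-like cells and 17.7% (14.3 to 21.5%) in Car4-high endothelial-like cells. With every cell thinned to 2500 UMIs these shares were 70.6% and 11.97%, at median depths of 6842.5 and 5100 UMIs before thinning.

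The cofactors of HSP70 peaked in T-cell-like cells rather than in macrophage-like cells. Dnajb1, whose protein starts the HSP70 cycle, was counted at 10.8 per 10000 (9.74 to 12.01) in T-cell-like cells, 4.02 (3.31 to 4.84) in gamma-delta-T-like cells, 3.12 (2.73 to 3.55) in interstitial-macrophage-like cells and 0.368 (0.308 to 0.437) in endothelial-like cells. Hsph1, whose protein ends that cycle, was at 4.11 (3.45 to 4.86) in T-cell-like cells, 2.08 (1.77 to 2.44) in interstitial-macrophage-like cells and 0.115 (0.0826 to 0.156) in endothelial-like cells. The 41 Hsph1 UMIs in 603 endothelial-like cells make it the sparsest value among the 9 genes in that class. Hsp90aa1, the inducible HSP90, was at 24.0 (22.3 to 25.7) in T-cell-like cells and 17.1 (16.2 to 18.1) in interstitial-macrophage-like cells. Its rate was 12.1 in B-cell-like cells, 12.2 in gamma-delta-T-like cells and 3.03 (2.85 to 3.22) in endothelial-like cells.

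Hspb1 ran the other way from the rest of the inducible group. This small heat shock protein was counted at 28.9 per 10000 (28.2 to 29.6) in Car4-high endothelial-like cells, 15.02 (14.3 to 15.8) in Plvap-high endothelial-like cells and 11.9 (11.01 to 12.8) in cluster 5, whose contractile genes lead it. Almost every Car4-high cell carried it, 452 of 457 cells or 98.9%. Cluster 3 had 6.14 (5.74 to 6.57), serous-macrophage-like cells 5.04 and interstitial-macrophage-like cells 3.41 (2.997 to 3.86). Of the 104 cells in the last class 25 held a Hspb1 UMI, and the 10% of cells with the most Hspb1 UMIs held 81.2% of them. T-cell-like cells had a UMI in 4 of 85 cells, and alveolar-macrophage-like cells had none, with an upper limit of 0.167 per 10000 by the Poisson interval.

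The constitutive pair was counted in every class. Hspa8 ranged from 3.10 per 10000 (2.71 to 3.54) in plasma-cell-like cells to 22.3 (20.7 to 24.0) in T-cell-like cells, with 9.06 (8.75 to 9.38) in endothelial-like cells, 16.8 (15.9 to 17.8) in interstitial-macrophage-like cells and 18.5 (17.5 to 19.5) in cluster 8. Hsp90ab1 lay between 13.7 (12.8 to 14.6) in cluster 5 and 19.8 (18.0 to 21.7) in alveolar-macrophage-like cells in all but 3 classes. The exceptions were T-cell-like cells at 33.8 (31.9 to 35.8), B-cell-like cells at 27.8 (26.5 to 29.2) and plasma-cell-like cells at 4.02 (3.57 to 4.52). Hspa5, the endoplasmic reticulum member, was highest in cluster 5 at 10.1 (9.34 to 10.96) and lowest in B-cell-like cells at 3.04 (2.62 to 3.52), and endothelial-like cells had 4.20 (3.99 to 4.41). In plasma-cell-like cells 7 of the 9 members were more than 2-fold lower than in all other cells, as were 49.1% of all genes, and immunoglobulin genes held 66.3% of the UMIs there. Hspa5 was not among the 7, at 6.81 per 10000 (6.22 to 7.45).

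Compared with all other cells, endothelial-like cells had 5 of the 6 inducible members low, and the place of Hspa8 differed between the libraries. Of the 9 members, 5 were more than 2-fold lower (Hspa1a, Hspa1b, Dnajb1, Hsph1 and Hsp90aa1), against 12.1% of 12702 genes. The log2 ratio of Dnajb1 was -2.25, that of Hsph1 -2.52 and that of Hsp90aa1 -1.58. Hspb1 alone was more than 2-fold higher, with a log2 ratio of 2.65, against 13.4% of genes. Hspa8 had a log2 ratio of -0.41, Hsp90ab1 0.08 and Hspa5 -0.66. The median over the 9 members was -1.58 (log2) and that over all genes 0.24. Within library 2 alone, where 45 cells were not endothelial-like, 2 of the 5 stayed more than 2-fold lower, with log2 ratios of -1.99 for Hspa1a and -1.49 for Hspa1b. There Hsph1 was at -0.79, Hsp90aa1 at -0.47 and Dnajb1 at 0.39. The Dnajb1 value rests on 14 UMIs in the 45 other cells, and its intervals overlapped, at 0.404 per 10000 (0.292 to 0.544) against 0.285 (0.156 to 0.478). Within library 1 alone 6 members were more than 2-fold lower, the same 5 and Hspa8 at -1.17 (5.21 against 11.8 per 10000). The share of all genes past 2-fold within a single library is not given, so these counts have no background beside them. In library 2 Hspa8 was higher in endothelial-like cells, at 18.1 against 14.4 (log2 0.33).

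Across the 4 classes that both libraries filled, Hspa1a was counted at 0.873 to 1.78 per 10000 in the 4 endothelial-like values and at 7.68 to 27.6 in the 4 values of interstitial-macrophage-like cells and cluster 8. Hspa1b lay at 0.684 to 2.24 against 3.65 to 22.9, Hsph1 at 0.0847 to 0.184 against 0.233 to 2.48, and Hspa5 at 3.89 to 5.91 against 6.28 to 7.90. For these 4 members all endothelial-like values lay below all myeloid ones, as they did for 9.59% of 11633 genes. Hspb1 lay above without overlap, at 13.2 to 33.5 against 0 to 4.13, as did 29.2% of genes. The values of Dnajb1, Hsp90aa1, Hspa8 and Hsp90ab1 overlapped. The separation of Hspa1b and Hsph1 rests on few cells or UMIs of library 2. The lowest myeloid value of Hspa1b, 3.65 in interstitial-macrophage-like cells of library 2, was 0.671 without its highest cell, inside the endothelial-like range. The lowest of Hsph1, 0.233, was 3 UMIs, and its interval of 0.0480 to 0.681 covered the endothelial-like values.

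In interstitial-macrophage-like cells 5 members were more than 2-fold higher than in all other cells, against 6.45% of genes. The log2 ratios were 2.21 for Hspa1a, 2.31 for Hspa1b, 1.15 for Dnajb1, 1.53 for Hsph1 and 1.45 for Hsp90aa1. Hspb1 was more than 2-fold lower (-1.78), as were 11.9% of genes. The count of 5 rested on library 1: in library 2 alone it was 1, Hspa1a, with a log2 ratio of 1.96. It was 3 with a pseudocount of 1 per 10000, and 3 against the unweighted mean of the other classes. The share of all genes is not given for these alternatives. In T-cell-like cells the same 5 members and Hspa8 were more than 2-fold higher, against 6.44% of genes, with log2 ratios of 3.12 for Dnajb1, 2.5 for Hsph1, 1.89 for Hsp90aa1 and 1.07 for Hspa8. Hspb1 was lower there (-3.75), as were 19.8% of genes. Library 2 held only 4 T-cell-like cells, so this class has no value of its own from library 2. B-cell-like and gamma-delta-T-like cells each had 2 members more than 2-fold higher, Dnajb1 and Hsph1, against 6.36% and 6.78% of genes.

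Further chaperone genes of the same pathway were counted in the same classes. Of 37 co-chaperones and heat shock factor 1 targets in the table, 7 were more than 2-fold higher in T-cell-like cells and 3 lower (6.44% and 19.8% of all genes). Those 7 included the mitochondrial chaperonins Hspe1 (9.15 against 2.80 per 10000) and Hspd1 (4.05 against 1.24), the J-domain gene Dnaja1 (15.7 against 4.37) and the HSP90 activator Ahsa1 (1.77 against 0.734). The median log2 ratio of the list was 0.14, beside -0.29 for all genes. In interstitial-macrophage-like cells 0 of the 37 were more than 2-fold higher and 3 were lower (6.45% and 11.9% of all genes), with a median of -0.17 beside -0.19 for all genes. In endothelial-like cells Bag3 was higher (0.997 against 0.445 per 10000, log2 1.01), and Hspe1 and Fkbp5 were lower (13.4% and 12.1% of all genes). The list of 20 endoplasmic reticulum stress genes had none more than 2-fold higher and 2 lower in endothelial-like cells, about the share of all genes that were lower. It had 11 lower in T-cell-like cells, where 19.8% of genes were, among them Hsp90b1 (2.94 against 10.2 per 10000), and 10 higher in plasma-cell-like cells, where 1.05% of genes were.

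Immediate early genes, which are known to be induced within minutes of stimulation and during tissue dissociation, were counted beside the chaperones. Their 18 genes summed to 209.1 UMIs per 10000 in interstitial-macrophage-like cells, 121.0 in cluster 8, 90.9 in T-cell-like cells, 92.7 in endothelial-like cells and 46.4 in B-cell-like cells. Of the 18, 10 in interstitial-macrophage-like cells were more than 2-fold higher than in all other cells and none lower (6.45% and 11.9% of all genes), among them Fos (27.5 against 8.68 per 10000) and Atf3 (14.9 against 2.71). In T-cell-like cells, where the inducible members were also high, 2 were higher and 8 lower (6.44% and 19.8% of all genes), with Fos at 2.34 against 10.4. In endothelial-like cells 2 were higher and 8 lower (13.4% and 12.1%). The part of dissociation or sorting in the chaperone levels was not tested.

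The balance of inducible and constitutive members depended on Hspb1. Counted as the UMIs of the 6 inducible members out of those of the 8 cytosolic members, the inducible share was 52.4% (51.7 to 53.1%) in endothelial-like cells and 53.2% (52.7 to 53.7%) in all other cells. Within each library the order was the other way: 57.2% against 54.1% (53.6 to 54.6%) in library 1 and 41.8% against 35.3% (33.2 to 37.5%) in library 2. Over both libraries, Hspb1 supplied 81.0% of the inducible UMIs of endothelial-like cells and 11.4% of those of the others. Without Hspb1 the shares were 17.3% (16.6 to 18.0%) and 50.2% (49.7 to 50.7%). The share with all 6 members was highest in interstitial-macrophage-like cells, at 66.1% (65.0 to 67.2%), followed by T-cell-like cells at 56.3% (54.8 to 57.8%) and cluster 5 at 55.7% (53.8 to 57.6%), whose intervals overlapped. That first place was held in library 1 only, since in library 2 interstitial-macrophage-like cells were at 35.0%, below endothelial-like cells (41.8%) and cluster 8 (42.0%, 38.6 to 45.5%). The share was lowest in alveolar-macrophage-like cells, at 31.4% (28.7 to 34.2%). This share does not depend on the total UMI count of a cell.

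**Figure D2:**
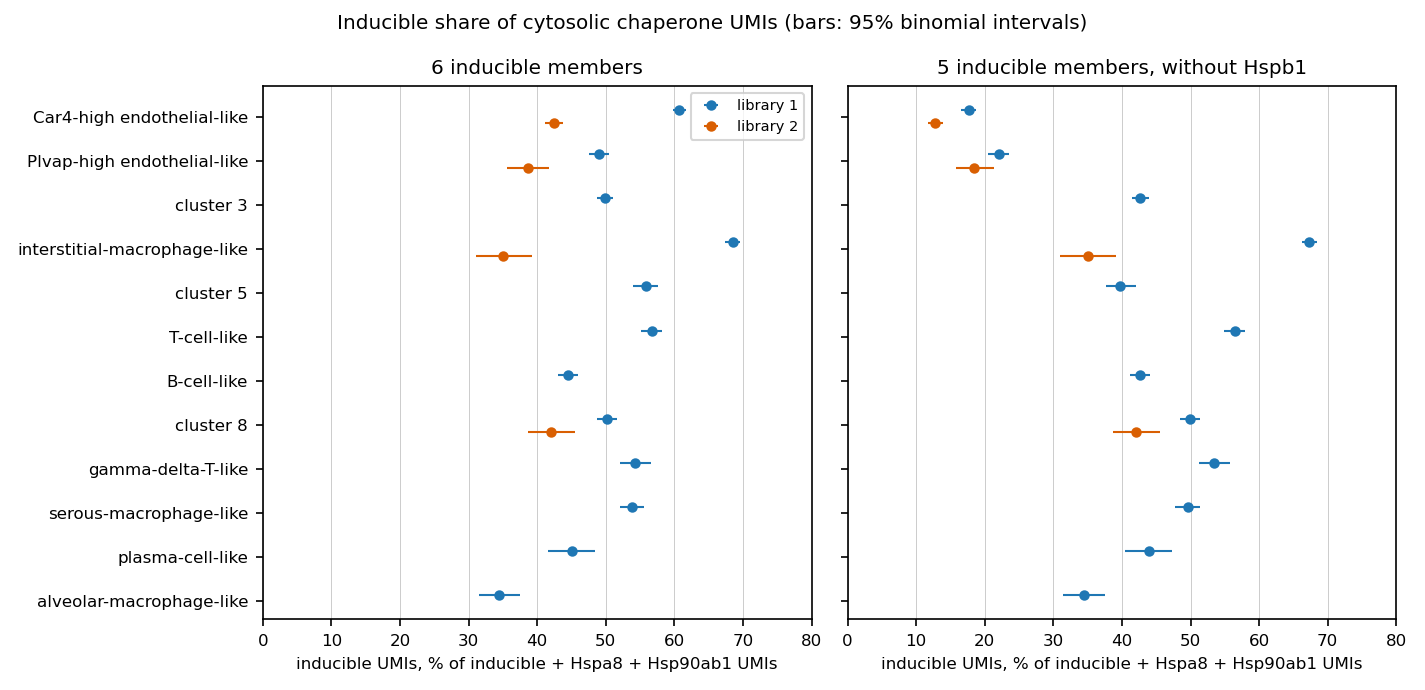
Inducible UMIs as a percent of inducible, Hspa8 and Hsp90ab1 UMIs (x axis, percent) by cell class (y axis), with all 6 inducible members on the left and without Hspb1 on the right; library 1 in blue, library 2 in orange where it held at least 10 cells, bars are 95% binomial intervals. The Car4-high endothelial-like cells of library 1 move from 60.7% to 17.6% when Hspb1 is left out, and the interstitial-macrophage-like cells of library 1 from 68.5% to 67.3%.

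The libraries differed in which members were high, and the direction was not the same in every class. In interstitial-macrophage-like cells Hspa1a was counted at 27.6 per 10000 (26.3 to 28.9) in library 1 and 7.68 (6.24 to 9.36) in library 2, Hspa1b at 22.9 and 3.65, and Hsp90aa1 at 20.1 (19.0 to 21.3) and 2.87 (2.02 to 3.96). All 6 inducible members were more than 2-fold lower in library 2, against 8.75% of 10589 genes, with a median log2 ratio of -2.69. Hspb1 had 0 UMIs in library 2 and was at least 17.7-fold lower, taking 3 counts in that library's cells as the floor, and with Hspb1 at this bound the median was also -2.69. Hspa8 did not follow, at 16.9 (15.9 to 18.0) and 16.5 (14.4 to 18.9). Without the highest cell of each library Hspa1a was at 26.4 and 3.69. The values of library 2 rest on 15 cells, of which 5 had a Hspa1a UMI (33.3%, 11.8 to 61.6%), while 76 of 89 cells had one in library 1. The median cell of library 1 had 14.4 Hspa1a UMIs per 10000 and the highest 141.3, and in library 2 the median was 0 and the highest 60.6. Immediate early genes summed to 213.5 and 188.4 per 10000 in these cells, and mitochondrial genes made up a median of 2.80% and 4.10% of a cell's UMIs. Their part in the difference was not tested.

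In cluster 8, the other myeloid class with cells in both libraries, Hspa1a had a rate of 13.3 (12.4 to 14.2) in library 1, against 10.2 (8.49 to 12.1) in library 2, and Hspa1b at 10.7 (9.93 to 11.6) and 9.22 (7.62 to 11.1), where the intervals overlapped. The values of library 2 rest on 1 of its 11 cells: without the highest cell of each library Hspa1a was at 12.2 and 4.39 and Hspa1b at 9.96 and 3.38. Of the inducible members Dnajb1, Hsph1 and Hspb1 were past 2-fold lower in library 2 with the pseudocount, against 7.46% of genes, on few UMIs. Dnajb1 had 3 UMIs there, a rate of 0.239 (0.0492 to 0.697) against 1.61 (1.31 to 1.96) in library 1, and Hsph1 had 4, 0.318 (0.0866 to 0.814) against 1.11 (0.866 to 1.41). Hspb1 had 0 UMIs in library 2 and 0.339 per 10000 in library 1, so against the floor it was at least 1.42-fold lower, which does not reach 2-fold. In endothelial-like cells Hspa1a was the same within counting error, 1.19 (1.05 to 1.33) and 1.18 (0.985 to 1.41), while Hspa1b was at 0.886 (0.773 to 1.01) and 1.30 (1.10 to 1.54). In endothelial-like cells the inducible share stood at 57.2% (56.4 to 58.0%) in library 1, against 41.8% (40.6 to 43.0%) in library 2. That of interstitial-macrophage-like cells was 68.5% (67.4 to 69.6%) and 35.0% (31.0 to 39.2%). Without Hspb1 the order of these classes was the same in both libraries, with 19.3% and 13.8% in endothelial-like cells and 67.3% and 35.0% in interstitial-macrophage-like cells. The lower endothelial-like value of library 2 goes with its Hspa8: inducible UMIs without Hspb1 were 1440 of 2495392 in library 1 and 593 of 1065142 in library 2, while Hspa8 was at 5.21 and 18.1 per 10000.

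Hspa8 was the member that differed most between the libraries in endothelial-like cells. It was counted at 5.21 per 10000 (4.93 to 5.50) in the 449 cells of library 1 and at 18.1 (17.3 to 18.9) in the 154 cells of library 2. The log2 ratio of 1.78 ranked 4 among 10637 genes, of which 0.404% were more than 2-fold higher in library 2, and no other member passed 2-fold higher or lower (0.912% of genes were lower). Smaller differences had intervals that did not overlap. Hspb1 (26.5 and 19.35), Hsp90ab1 (18.96 and 16.59) and Hsp90aa1 (3.25 and 2.51) were lower in library 2. Hspa5 (3.94 and 4.79) and Hspa1b (0.886 and 1.305) were higher there. The shift ran through the whole class, since the quartiles over cells were 2.62 and 7.18 in library 1 and 12.4 and 22.2 in library 2. Car4-high cells had 4.90 and 18.3 and Plvap-high cells 5.69 and 17.3, so both clusters showed it. In cluster 8 the rates were 17.7 (16.7 to 18.8) and 22.6 (20.0 to 25.4).

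**Figure D3:**
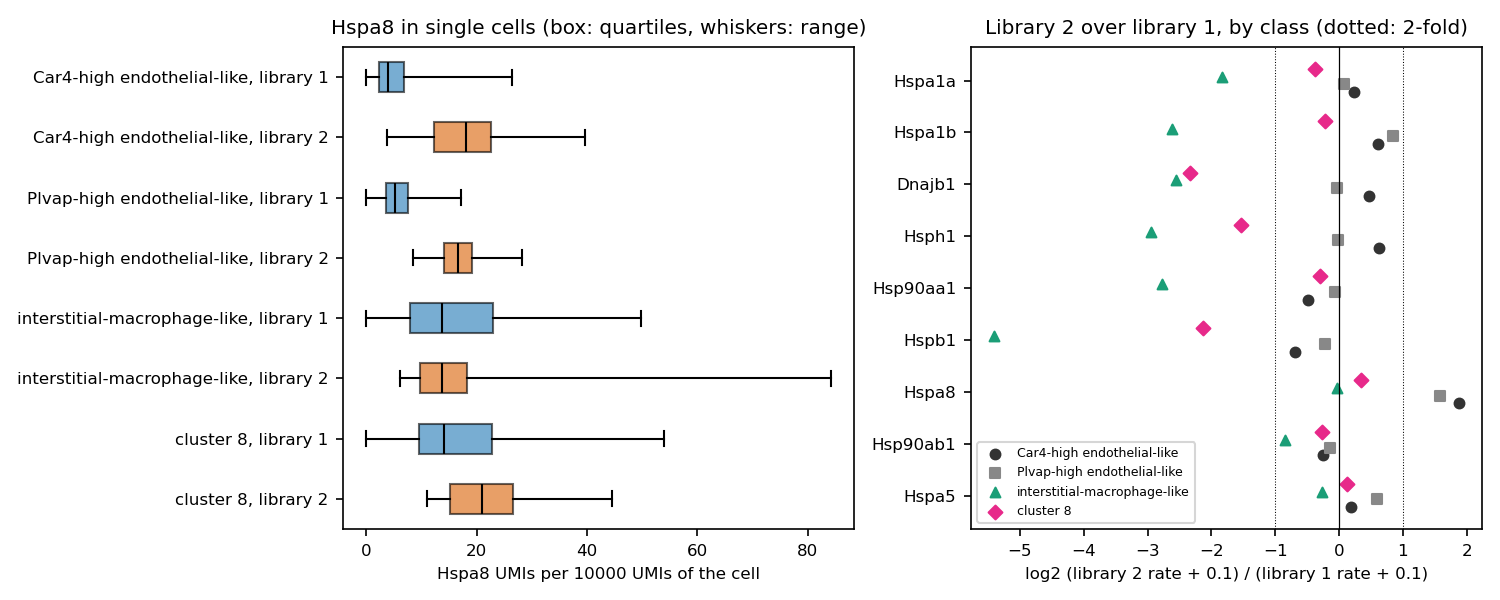
Left, Hspa8 UMIs per 10000 UMIs of each cell (x axis) in 4 classes of both libraries (y axis), with boxes from the first to the third quartile, the median as a line and whiskers to the lowest and highest cell; right, the log2 ratio of library 2 over library 1 (x axis) for each chaperone (y axis) in the same 4 classes, with dotted lines at 2-fold. The Hspa8 boxes of endothelial-like cells do not overlap between the libraries, and the ratios of the 6 inducible members in interstitial-macrophage-like cells lie between -5.40 and -1.83, where the points of Hspb1, which had 0 UMIs in library 2 in both myeloid classes, are set by the pseudocount.

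The end of the Hspa8 transcript is held in common with other genes. Of the 50-base stretches in its last 500 bases, 81.8% were also found in transcripts of 11 other genes, most of them in Gm15459, while 6 of the other 8 members shared none of theirs. Hspb1 shared 15.96% and Hsp90ab1 7.76%. Of the 3 genes that ranked above Hspa8 in the library comparison, named here after their values were seen, Gm8797 shared 84.1% of its end (3.08 per 10000 in library 2 and 0.0601 in library 1) and Serinc3 shared 0% (23.7 and 5.08). The third, Gm26870, shared 0% (0.535 and 0.0521). Among the 284 genes with at least 50% of their end shared, 3 (1.06%) were more than 2-fold higher in library 2, Hspa8 and Gm8797 among them, beside 0.390% of the other 10260. More of the 284 were lower, 8 (2.82%), beside 0.867%, and their median log2 ratio was -0.04. The 2 clusters differed in this. In Car4-high cells 5 of 279 such genes were higher (1.79%, beside 0.473%) and 3 lower (1.075%, beside 0.432%), with a median of 0.07. In Plvap-high cells 10 of 317 were higher (3.155%, beside 2.42%) and 20 lower (6.31%, beside 4.10%), with a median of -0.11. The part of shared ends in the Hspa8 difference was not tested.

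Within a class the level of the inducible HSP70 pair varied widely from cell to cell. In interstitial-macrophage-like cells the summed Hspa1a and Hspa1b level had a median of 21.6 UMIs per 10000 of the cell, quartiles of 3.48 and 61.1, and a highest cell of 259.3. T-cell-like cells had a median of 10.4 and a highest cell of 229.5, and B-cell-like cells 3.76 and 242.1. In gamma-delta-T-like cells the median was 0 and the highest 10% of cells started at 71.7. In endothelial-like cells 414 of 603 cells (68.7%) had no UMI of either gene, and the 61 cells with the most UMIs of the pair held 78.1% of them. The highest endothelial-like cell, with 201.8 UMIs per 10000, lay within the range of the macrophage-like cells.

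**Figure D4:**
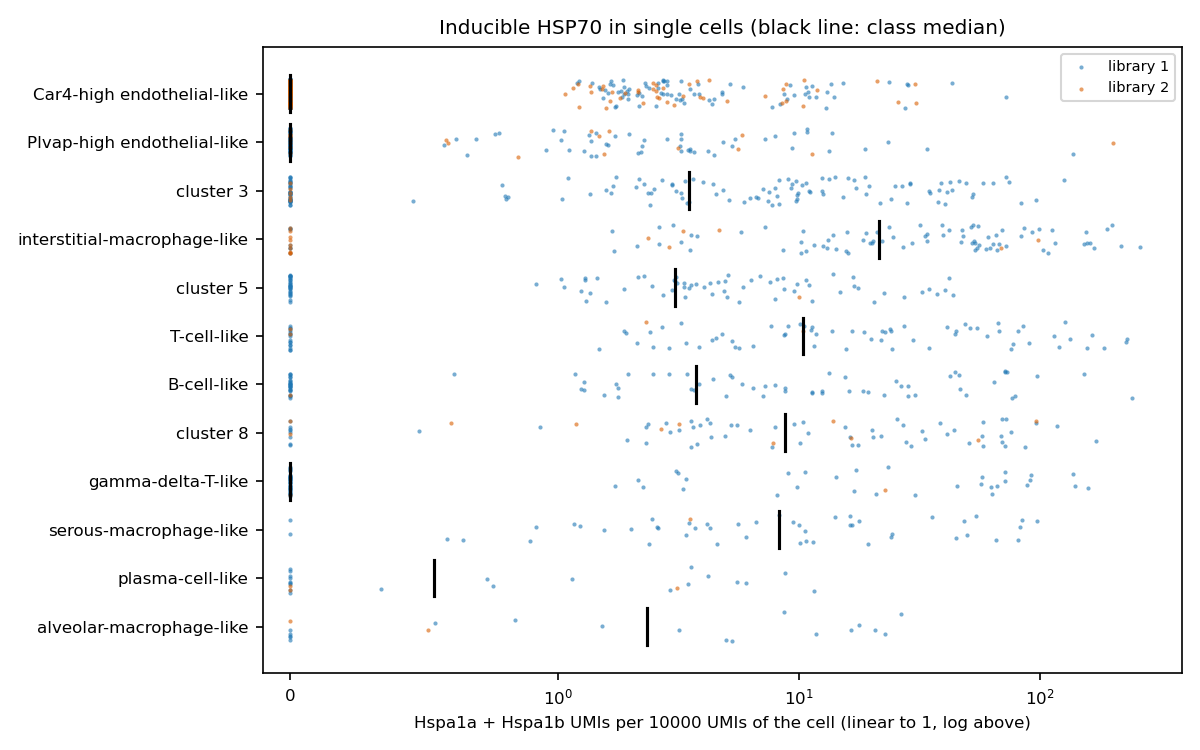
Summed Hspa1a and Hspa1b UMIs per 10000 UMIs of each cell (x axis, linear to 1 and logarithmic above) by cell class (y axis), 1 point per cell, library 1 in blue and library 2 in orange, with the class median as a black line. The medians range from 0 in both endothelial-like clusters and in gamma-delta-T-like cells to 21.6 in interstitial-macrophage-like cells, and every class has cells with none.

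Averaged over classes, the cytosolic members, constitutive ones included, tended to be high in the same cells as Hspa1a, but classes differed. Over the cells of each of the 10 classes with at least 40 cells, the deposited natural-log values of Hspa1a correlated with those of Hspa1b at a mean Pearson r of 0.74 (0.55 to 0.85 across classes). The mean r of Hspa1a was 0.47 with Hsp90aa1, 0.42 with Dnajb1, 0.39 with Hspa8, 0.36 with Hsph1, 0.36 with Hsp90ab1, 0.25 with Hspb1 and 0.07 with Hspa5. Across classes r ran from -0.04 to 0.72 with Hsp90aa1, 0.06 to 0.59 with Hspa8, -0.03 to 0.62 with Hsph1 and -0.05 to 0.56 with Hsp90ab1. These are descriptions over cells that share a library and a depth, and no p belongs to them. In interstitial-macrophage-like cells (n = 104) r of Hspa1a was 0.72 with Hspa1b, 0.62 with Hsp90aa1 and 0.51 with Dnajb1. In Car4-high endothelial-like cells (n = 457) r was 0.55 with Hspa1b, and it was -0.04 with Hsp90aa1, 0.00473 with Dnajb1 and 0.0126 with Hsph1. After thinning to 2500 UMIs these 4 values were 0.48, -0.02, 0.00796 and 0.0213. Dnajb1 and Hsph1 were sparse in those cells, at 71 and 29 UMIs, so little correlation could be seen at this depth, while Hsp90aa1 had 748. In Plvap-high endothelial-like cells (n = 146) r of Hspa1a was 0.68 with Hspa1b and 0.199 with Hsp90aa1. It was 0.055 with Dnajb1, 0.095 with Hsph1 and 0.092 with Hspb1.

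**Figure D5:**
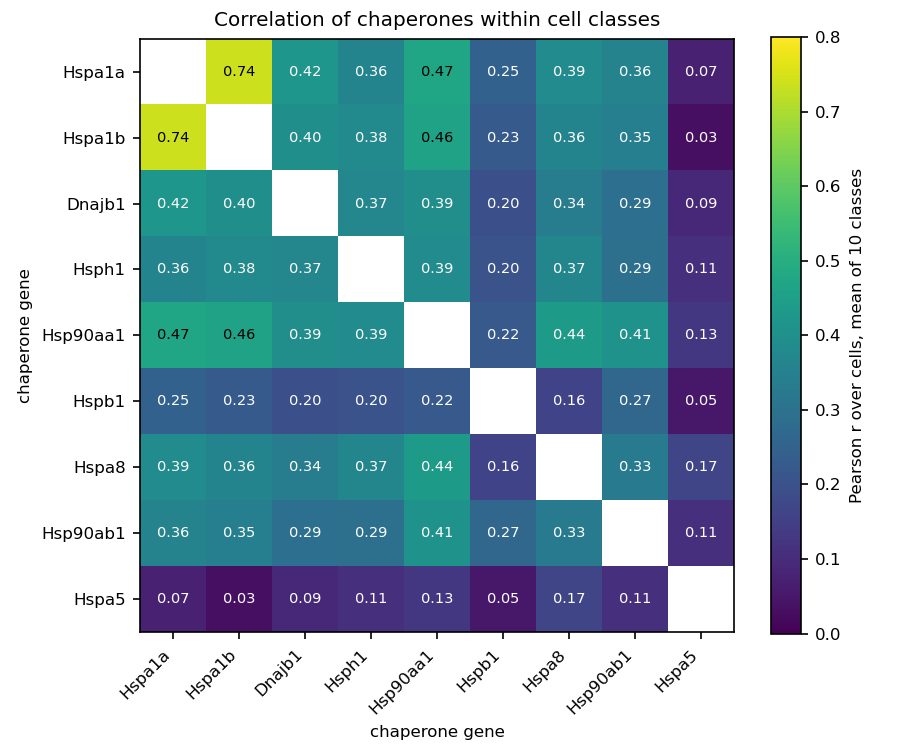
Mean Pearson r over cells (colour scale and printed values) for each pair of the 9 chaperones (both axes), averaged over the 10 classes with at least 40 cells. The pair Hspa1a and Hspa1b stands at 0.74, the row of Hspa5 lies between 0.03 and 0.17, and the row of Hspb1 between 0.05 and 0.27.

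Among 9356 genes with a UMI in at least 5% of cells, those whose values ran most like the summed HSP70 pair over the cells of these 10 classes were named by their mean r. Among the 10 most alike were Jun (0.48), Atf3 (0.40), Dnaja1 (0.40) and Klf2 (0.39), and Junb, Zfp36, Klf6, Fos and Dusp1 (0.38 to 0.34), beside a median of -0.01 over all genes. Dnaja1 encodes a J-domain chaperone, and the other 8 genes named are on the list of immediate early genes. With each cell thinned to 2500 UMIs the mean r of Jun was 0.45. For Hspa5 the most alike were Hsp90b1 (0.28), the HSP90 of the endoplasmic reticulum, Ifrd1 (0.22), Calr (0.21), a calcium-binding chaperone of the same compartment, and Kdm6b (0.21). After thinning to 2500 UMIs their mean r was 0.19, 0.13, 0.18 and 0.15, in the same order. All of these lay under the mean r of 0.2 that was required for naming a gene. In single classes r fell as low as -0.04 for Ifrd1 and -0.03 for Calr.

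Cells with a Cdkn2a UMI can be set apart from cells without one, although a cell without a UMI may still express the gene. Among endothelial-like cells of library 1, Hspb1 was at 29.6 per 10000 (28.6 to 30.5) in the 209 cells with a Cdkn2a UMI and 23.6 (22.8 to 24.5) in the 240 without. In library 2 it was at 19.5 (18.6 to 20.4) in 118 cells and 18.8 (16.9 to 20.8) in 36. Hsp90ab1 was higher with a Cdkn2a UMI in both libraries, at 20.4 (19.6 to 21.2) against 17.6 (16.9 to 18.4) and at 17.5 (16.6 to 18.4) against 12.7 (11.2 to 14.4). Hspa1a was lower with one, at 1.07 against 1.30 in library 1, where the intervals overlapped, and 0.953 (0.759 to 1.18) against 2.22 (1.60 to 2.99) in library 2. Hspa1b went the other way in library 1, at 1.02 (0.847 to 1.21) with a Cdkn2a UMI and 0.759 (0.616 to 0.927) without. In library 2 Hspa1b was lower with one, at 0.723 against 3.92. The 36 cells without one held only 43 Hspa1a and 76 Hspa1b UMIs. Without the highest cell, the rates of all endothelial-like cells of library 2 fell from 1.18 to 0.97 (Hspa1a) and from 1.305 to 1.01 (Hspa1b). On which side of the split that cell lies is not given, and its part in these contrasts was not tested. The cells with a Cdkn2a UMI were deeper, with medians of 5167 against 4600 UMIs and 6845 against 4668.5, and the part of depth was not tested. The split pooled the Car4-high and Plvap-high clusters, whose mix on each side is not given. Over both libraries these clusters had Hspb1 at 28.9 and 15.02 per 10000 and Hsp90ab1 at 19.0 and 16.7. The part of the cluster mix was not tested.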

How the data were processed

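Single cells were measured with 10x Genomics 3' version 3 chemistry after sorting, per the labels' protocols, and processed with Cell Ranger 3.0.2 on mm10, per the submitters' processing notes. No source used here gives the gene annotation, the cell filters or how doublets were treated. The deposited values are on a natural log scale, ln(1 + UMIs per 10000 of the cell), read from the values themselves, which sum back to 10000 in every cell. Whole UMIs were recovered (largest deviation from a whole multiple 1.78e-10), with the smallest value of each cell taken as 1 UMI, and used for rates, shares and thinning. They were rebuilt from the normalised values, and no count model was fitted. The table held 8180969 UMIs in library 1 and 1557073 in library 2.

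Clustering used scanpy 1.11.5 and 2000 variable genes without the members and the stress lists (20 components, 15 neighbours, Leiden resolution 0.5). Clusters were named by hand from 27 marker lists and their leading genes, with the member rates in view. No doublet caller was run, and 23 cells (1.71%) with markers of several lineages were kept, and left out in an alternative. Log2 ratios carry a pseudocount of 0.1 per 10000, among genes with a UMI in at least 1% of cells. Intervals are exact Poisson and Clopper-Pearson intervals at 95%. Named genes were the members, genes of the fixed pathway lists past 2-fold in a class of at least 40 cells, and the genes most alike in r, of which 1 is not reported here. Members and lists were chosen with earlier results of these data known. In all 24 alternatives were planned, and the split of genes by shared 3' ends and the values without the highest cell of each library were added once the data had been seen. The highest cell left out was the cell with the most UMIs of the gene. The ratio of summed rates was tested on simulated data.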

Additional observations from a re-analysis of the deposited data

Results flagged for a closer look

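Between the libraries Hspa1a and Hspa1b went in opposite directions in different classes. In both endothelial-like clusters the log2 ratio of library 2 over library 1 was above 0 (0.24 and 0.08 for Hspa1a, 0.61 and 0.84 for Hspa1b), and in interstitial-macrophage-like cells and cluster 8 it was below 0 (-1.83 and -0.38 for Hspa1a, -2.61 and -0.22 for Hspa1b). The mean of the endothelial-like clusters minus that of the myeloid classes was 1.26 for Hspa1a and 2.14 for Hspa1b (log2). The difference itself was not tested, since each library gives 1 value a class, and the counting intervals of Hspa1a overlapped between the libraries in both endothelial-like clusters. The Plvap-high values rest on 1 of 21 cells of library 2: without the highest cell of each library Hspa1a was at 0.620 per 10000 in library 2 and 1.23 in library 1, which turns the log2 ratio to -0.88, and Hspa1b at 0.620 and 0.588 (log2 0.07). In the myeloid classes the ratios without these cells stayed below 0 (-2.80 and -1.46 for Hspa1a, -4.83 and -1.53 for Hspa1b). In Car4-high cells Hspa1a had 1.05 UMIs per 10000 in library 2 and 0.873 in library 1.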

How the results depend on the processing

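Library 2 held few cells other than endothelial-like ones, and of the alternatives run, leaving out library 1 moved the most values. Without library 1 the log2 ratio of Dnajb1 in endothelial-like cells against all other cells turned from -2.25 to 0.39, on 14 UMIs in the other cells and with overlapping intervals. When each library was left out in turn, the members more than 2-fold lower in endothelial-like cells numbered 2 to 6 (main count 5), those higher in interstitial-macrophage-like cells 1 to 5 (5) and those higher in T-cell-like and gamma-delta-T-like cells as 1 class 2 to 6 (5). These counts have no share of all genes within a single library beside them. The inducible share ranged from 35.0% to 68.5% in interstitial-macrophage-like cells (66.1%) and from 30.8% to 55.9% in the joint T-cell class (55.5%). Against the unweighted mean of the other classes, the members higher in interstitial-macrophage-like cells numbered 3, those lower 0 and those higher in the joint T-cell class 3. With a pseudocount of 1 per 10000, 3 were higher in interstitial-macrophage-like cells. Without Hspb1 the inducible share of endothelial-like cells was 17.3%, and with Hspa1a and Hspa1b alone it was 7.44%, beside 36.7% in the joint T-cell class. Genes more than 2-fold higher or lower in endothelial-like cells numbered 1702 and 1539, 2965 and 2806 with a pseudocount of 0.01, and 470 and 365 with 1. Between libraries in these cells they numbered 43 and 97, 264 and 633, and 6 and 12. Of 351 alternative log2 ratios of members in the 3 class comparisons, 310 moved by less than the spread used and 40 by more, and 1 reversed. That spread was the standard deviation of the 2 values with 1 library left out, which are themselves among the alternatives. It is wide where the libraries differ, as for Dnajb1, so the 310 do not measure how firm the ratios are. With 30 components, or with the stress lists kept, cluster 8 joined the interstitial-macrophage-like cells. Depth limits Dnajb1 and Hsph1 in endothelial-like cells most. No paired analysis was possible because the labels give 1 group.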
